A study of Homo sapiens with 6 samples.

Results

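Human chromosome 19 carries the largest collection of C2H2 zinc finger genes in the genome, and their transcript levels were compared between osimertinib-resistant and control lung adenocarcinoma cells. The genes were taken as those that the deposited tables assign to the transcription factor family zf-C2H2 and place on chromosome 19. They numbered 257 of the 30330 genes listed for each library, and 330 further zf-C2H2 genes on other chromosomes served as background. The tested cells were H1975/OSI, a derivative of NCI-H1975 obtained with osimertinib (OSI), an inhibitor of the EGFR kinase, in steps of 0.03, 0.1, 0.3, 1 and 3 µM over 7 months. The controls were NCI-H1975 itself, an epithelial line from a human lung adenocarcinoma. There were 3 resistant and 3 control RNA-seq libraries. The resistant cells are 1 derived line, the labels do not say whether drug was in the medium when RNA was taken, and no label ties the libraries of a group to cultures of their own. Each p-value is therefore set against library-to-library spread, and that spread may be technical.

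A C2H2 zinc finger is a short loop of protein held by a zinc ion that reads a few bases of DNA, and proteins of this family string many fingers together. Most chromosome 19 members also carry a KRAB domain, which recruits the scaffold protein TRIM28 and through it the histone methyltransferase SETDB1, HP1 proteins and DNA methylation, so that the bound sequence is silenced. Many KRAB zinc finger proteins bind transposable elements, and the genes arose by repeated local duplication, which left them in head-to-tail clusters of close relatives.

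Depth was similar across libraries, at 15174126 to 16276518 reads in the resistant and 15813497 to 16588479 in the control libraries. The members took 0.676%, 0.690% and 0.712% of the reads in the resistant libraries, against 0.537%, 0.533% and 0.585% in the controls. Resistant replicate 1 stood apart from the other resistant libraries, with a chi-square per gene of 12.1 and 13.5 against them, whereas replicates 2 and 3 differed by 2.42 and the controls by 2.55 to 3.93 among themselves. Mitochondrial reads were 5.33 to 5.66% in the resistant and 6.46 to 7.34% in the control libraries. The 8 epithelial and lung markers summed to 42889 to 50284 in the resistant and 60098 to 63629 in the control libraries, mostly keratins, with the lung factor NKX2-1 at 439.5 to 481 in the resistant and 254 to 303 in the control libraries. EPCAM was at 15.7 to 19.7 in the resistant and 353 to 391 in the control libraries. Of 8 markers of other cell types, 6 were in the table, and they summed to 630.3 to 826 in the resistant and 355 to 386 in the control libraries. The endothelial markers went opposite ways, with CDH5 at 464 to 670 in the resistant and 123 to 129 in the control libraries, and PECAM1 at 78.9 to 88.7 in the resistant and 157 to 199 in the control libraries. The neuroendocrine marker SYP was at 11.1 to 20.7 in the resistant and 26.0 to 38 in the control libraries. ALB was at or below 6.91 in every library and CHGA was at 0 in 5 of the 6. Without resistant replicate 1, 103 members were called higher and 21 lower. The part of these differences in the results below was not tested, and in bulk RNA fewer cells with a transcript cannot be told apart from less transcript per cell.

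Ordered by start position and split at gaps above 500 kb, 241 members fell into 10 clusters of at least 5 genes, numbered from the short-arm end, and 16 lay outside. Of the 257, 255 were annotated as protein-coding and 2 as pseudogenes. Among the 254 with an annotated protein, 204 matched a KRAB domain, and the median member had 12 fingers, compared with 8 for the family elsewhere. Cluster 3 lies on the short arm at chr19:11483427-12887199 (GRCh38) and holds 29 members, from ZNF653 to KLF1. It contained most of the largest differences, so the sequence before the start of 4 of its genes is shown, from RefSeq on GRCh38.p14. Each line is the 250 bases before the annotated start, written 5′ to 3′ on the gene's strand. Capitals mark the GC box GGGCGG, the element read by SP and KLF factors, and CCAATCAGG, an extended CCAAT box, on either strand. ZNF442, ZNF441 and ZNF433 were higher in the resistant cells, and ZNF878, which lies next to ZNF433, did not pass the test. The positions are chr19:12365684-12365933 (minus strand) for ZNF442, chr19:11766750-11766999 (plus strand) for ZNF441, chr19:12035680-12035929 (minus strand) for ZNF433 and chr19:12052962-12053211 (minus strand) for ZNF878.
ZNF442: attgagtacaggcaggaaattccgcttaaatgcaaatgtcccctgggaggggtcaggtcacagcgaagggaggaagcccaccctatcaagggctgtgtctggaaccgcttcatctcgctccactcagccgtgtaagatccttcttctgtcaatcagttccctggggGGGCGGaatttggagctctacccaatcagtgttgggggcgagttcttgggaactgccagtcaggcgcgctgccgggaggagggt
ZNF441: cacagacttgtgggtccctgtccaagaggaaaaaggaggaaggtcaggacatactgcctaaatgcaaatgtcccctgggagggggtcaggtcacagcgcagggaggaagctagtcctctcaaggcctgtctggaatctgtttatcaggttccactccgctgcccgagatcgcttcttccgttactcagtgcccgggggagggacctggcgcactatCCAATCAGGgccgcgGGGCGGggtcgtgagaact
ZNF433: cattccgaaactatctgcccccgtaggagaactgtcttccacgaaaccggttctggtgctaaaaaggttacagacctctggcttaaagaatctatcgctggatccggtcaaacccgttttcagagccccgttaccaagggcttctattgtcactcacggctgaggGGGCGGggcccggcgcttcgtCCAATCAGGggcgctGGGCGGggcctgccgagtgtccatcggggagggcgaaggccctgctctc
ZNF878: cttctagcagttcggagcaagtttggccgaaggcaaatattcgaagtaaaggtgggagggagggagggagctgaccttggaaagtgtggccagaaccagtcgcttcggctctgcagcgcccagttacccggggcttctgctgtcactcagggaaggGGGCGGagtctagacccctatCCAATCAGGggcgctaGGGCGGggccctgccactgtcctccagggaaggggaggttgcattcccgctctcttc

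The extended CCAAT box was common among the relatives of these genes. Both strands were searched, and each such word also contains a plain CCAAT box. In the window from 250 bases before to 50 after the start, CCAATCAGG was found in 14 of the 25 cluster 3 promoters that could be matched, its first base lying 31 to 130 bases before the start with a median of 67.5. ZNF441, ZNF433 and ZNF878 carried it, and ZNF442 had a CCAAT box with other flanking bases. Over all 27305 promoters the word was found in 1.2%, over the 222 matched members in 18.5% and over 260 zf-C2H2 promoters elsewhere in 6.92%. Within the family it was found in 4 clusters, in 3 of 5 promoters of cluster 1, 14 of 25 of cluster 3, 17 of 19 of cluster 4 and 7 of 7 of cluster 5. None of the 11, 4, 28, 17, 31 and 61 promoters of clusters 2, 6, 7, 8, 9 and 10 had these letters in the window. The GC box was in 92.0% of cluster 3 promoters, against 66.2% over the members and 44.6% over all promoters. The ETS word CCGGAAG was found in 8% of cluster 3 promoters and 43.7% of the members, compared with 10.7% of all promoters. A TATA box, TATAAA, was in 2.25% of the members and 12% of all promoters. CCAATCAGG was singled out after the recurrent words of cluster 3 had been counted, so its share there is a description.

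The family was shifted towards higher transcript levels in the resistant cells. Of 254 members that passed the filter on low values, 98 rose and 21 fell at a limma adjusted p under 0.05, which was 38.6% and 8.27% of those tested. Over all 24560 genes tested, 41.5% were called, 20.4% higher and 21.1% lower. Nearly all members are protein-coding, and of the 15296 protein-coding genes tested 54.9% were called, 25.7% higher and 29.1% lower, with a median of -0.02. In total 46.9% of the tested members were called, between the shares over all genes and over protein-coding genes. The median log2 fold change, resistant minus control, was 0.23 over the members and 0.01 over all genes. The shift was seen in each resistant library on its own, with member medians of 0.20, 0.23 and 0.22 against the control mean. The normalized read count of a gene is its number of reads divided by the authors' size factor for the library. Summed over the members it was 106929, 103635 and 106582 in the resistant libraries, against 87159, 87555 and 93553 in the controls, a ratio of 1.18, and the resistant and control sums did not overlap.

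C2H2 genes on other chromosomes had a median between that of the members and that of all genes. Of 320 tested, 99 rose (30.9%) and 45 fell (14.1%), with a median of 0.14. Their summed level differed little between the groups, at a ratio of 1.00. Other genes of chromosome 19 had 371 of 1508 higher (24.6%) and 244 lower (16.2%), with a median of 0.11. The difference between these lists was not tested. Scaling each library to the median of its expressed genes lowered every fold change by the same amount, so that the median of all genes fell by 0.13 on the log2 scale. On that scaling 70 members rose (27.6%) and 43 fell (16.9%), against 15.1% and 27.1% of all genes tested. Of the called members 61.9% were higher, compared with 82.4% on the deposited scaling. Of all called genes 35.8% were higher, compared with 49.1% on the deposited scaling. Any list median or gene between 0 and 0.13 turned negative. The limma fit without a trend in the variance called 61 members higher (24.0%) and 11 lower (4.33%), against 15.0% and 15.8% of all genes.

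**Figure D1:**
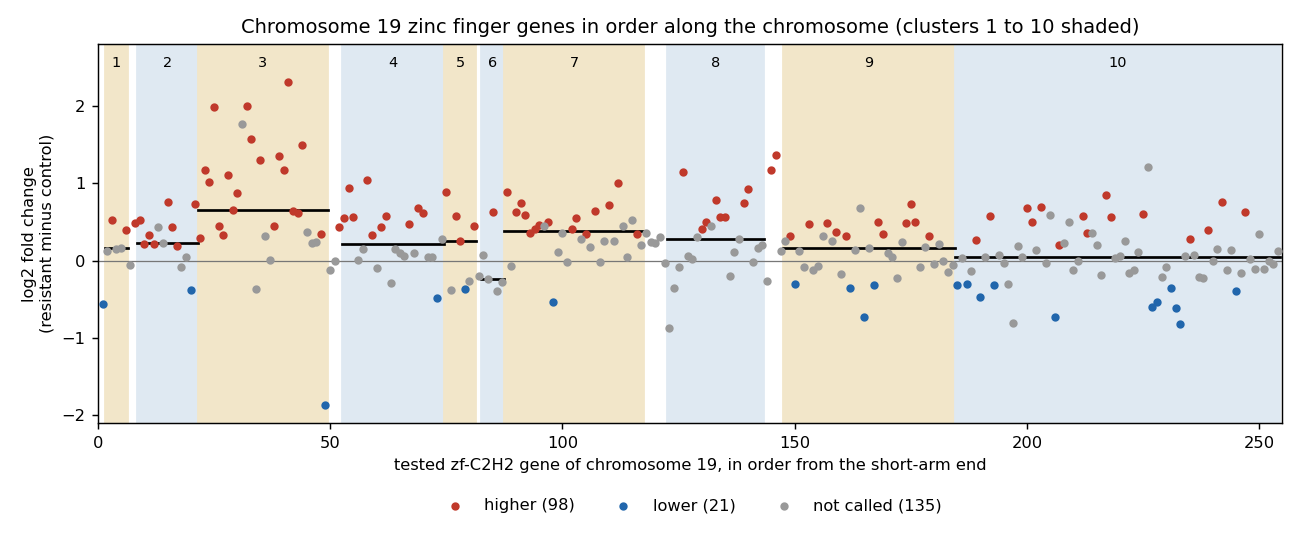
Log2 fold change, resistant minus control, of the 254 tested members in their order along the chromosome, with clusters 1 to 10 shaded and a black line at each cluster's median. Red points rose (98), blue points fell (21) and grey points did not pass the test (135); the tall group of red points is cluster 3, and a run of blue points lies in cluster 10.

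**Figure D2:**
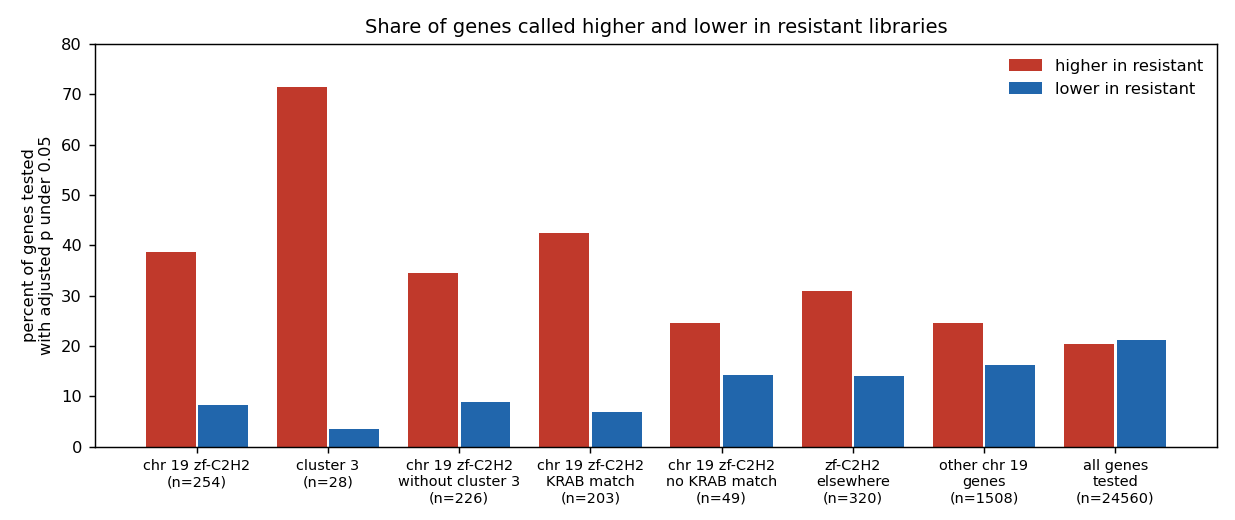
Percent of tested genes called higher (red) and lower (blue) in the resistant libraries, by gene list, with the number tested under each pair of bars. Cluster 3 had 71.4% higher and 3.57% lower, the members without it 34.5% and 8.85%, and all genes 20.4% and 21.1%.

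Cluster 3 had the highest median of the 10 clusters, with nearly all of its called members higher. Of its 28 tested members 20 rose (71.4%) and 1 fell, and the median log2 fold change was 0.65. The members' summed normalized read count was 10436, 9624 and 10404 in the resistant libraries, against 5238, 5362 and 5781 in the controls, a ratio of 1.86. Of 16 members of the whole family that rose at least 2-fold, 11 were in this cluster. Under the alternatives run, including leaving out each library, 15 to 20 of its members were called higher and its median lay between 0.51 and 0.73. Without the cluster, the remaining 226 tested members had 78 higher (34.5%), 20 lower (8.85%) and a median of 0.18.

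The gene with the largest rise was ZNF442, a KRAB gene with 14 fingers (ENSG00000198342, chr19:12345949-12365905 on the minus strand). Its normalized read count was 252, 237 and 226 in the resistant libraries, against 49.3, 45.7 and 47.2 in the controls. Every resistant library lay far above every control, and the fitted difference was large (log2 fold change 2.30 ± 0.15, adjusted p = 8.90e-12). The largest rises and falls were named only among called members whose groups did not overlap, so their separation was fixed by that choice. Errors of fold changes are standard errors. ZNF441 (ENSG00000197044, chr19:11767000-11784078 on the plus strand) had 859, 673 and 691 in the resistant libraries, against 170.4, 187 and 197 in the controls. Again the groups were well apart, and the p was the smallest of the cluster (log2 fold change 1.99 ± 0.11, adjusted p = 2.67e-13). Both genes have 14 fingers and share few 50-base words with other transcripts, 2.65% for ZNF442 and 0.0211% for ZNF441.

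ZNF433, a KRAB gene with 18 fingers, had 414, 271 and 336 in the resistant libraries, against 132, 96.6 and 112 in the controls, and its resistant values were all above its controls (log2 fold change 1.57 ± 0.15, adjusted p = 9.65e-09). ZNF44 (ENSG00000197857, chr19:12224686-12294887 on the minus strand) had 1182, 1041 and 1152 in the resistant libraries, against 415, 425 and 482 in the controls, with narrow spread in both groups (log2 fold change 1.35 ± 0.08, adjusted p = 3.90e-12). ZNF844 had 1214, 1018 and 1102 in the resistant libraries, against 402, 481 and 469 in the controls (log2 fold change 1.30 ± 0.09, adjusted p = 1.88e-11). ZNF44 and ZNF844 are among the better expressed of the cluster. The values of ZNF433, ZNF44 and ZNF844 did not overlap between the groups, which the rule that named them required. ZNF563 was at lower level, with 213, 208 and 196 in the resistant libraries, against 85.2, 116 and 75.2 in the controls (log2 fold change 1.17 ± 0.15, adjusted p = 1.14e-06). ZNF763, which has 6 fingers and no KRAB match, had 65.3, 88.6 and 111 in the resistant libraries, against 15.4, 28.1 and 21.2 in the controls (log2 fold change 1.99 ± 0.25, adjusted p = 6.75e-07). Its value is uncertain, because 49.1% of its 50-base words occur in other transcripts and it overlaps ENSG00000267179 on the same strand.

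The same stretch held further risers, named after their values were seen. Means are given with their SD over 3 libraries a group. ZNF627 averaged 816 ± 52.6 in the resistant and 363 ± 16.5 in the control libraries (log2 fold change 1.17 ± 0.08, adjusted p = 7.28e-11). ZNF439 averaged 649 ± 78.7 in the resistant and 301 ± 41.4 in the control libraries (log2 fold change 1.11 ± 0.11, adjusted p = 9.88e-09). ZNF823 reached 313 ± 30.9 in the resistant and 155 ± 26.9 in the control libraries (log2 fold change 1.01 ± 0.13, adjusted p = 7.04e-07). From ZNF627 to ZNF442, 15 of 19 tested members rose, 10 of them at least 2-fold, with a median of 1.11. The exceptions in that stretch were ZNF878, ZNF20, ZNF625 and ENSG00000267179, which are read at low levels. ZNF878 had 26.5, 32.3 and 52.3 in the resistant libraries, against 46.2, 40.5 and 52.0 in the controls, with overlapping groups and a log2 fold change of -0.36. ZNF20 and ZNF625 had log2 fold changes of 0.32 and 0.01, and share 51.2% and 81.3% of their 50-base words with other transcripts. ENSG00000267179, which shares 79.0% of its words, was at least 2-fold higher in the resistant libraries but did not pass the test.

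Past ZNF442 the median was smaller. From ZNF799 to KLF1, 8 members were tested, with a median of 0.36. Of these 4 rose, 1 of them at least 2-fold, and 1 fell. ZNF791, the most abundant of these, had 1334, 1283 and 1348 in the resistant libraries, against 1010.4, 1023 and 1101 in the controls, a small but separate difference (log2 fold change 0.34 ± 0.07, adjusted p = 0.000324). The gene that fell was KLF1, the red cell member of the Krüppel-like factors, which has 3 fingers and closes the cluster. KLF1 had 2.04, 3.69 and 0.987 in the resistant libraries, against 7.19, 13.5 and 10.6 in the controls (log2 fold change -1.87 ± 0.53, adjusted p = 0.00588). Those values rest on 2, 4 and 1 reads in the resistant libraries and 7, 13 and 11 in the controls. The calls of ZNF653, at an adjusted p of 0.0488, and ZNF491, at 0.0389, were the nearest to the threshold. The call of ZNF653 was lost without any 1 of the 6 libraries, and that of ZNF491 without control replicate 2 or 3 or resistant replicate 2 or 3.

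**Figure D3:**
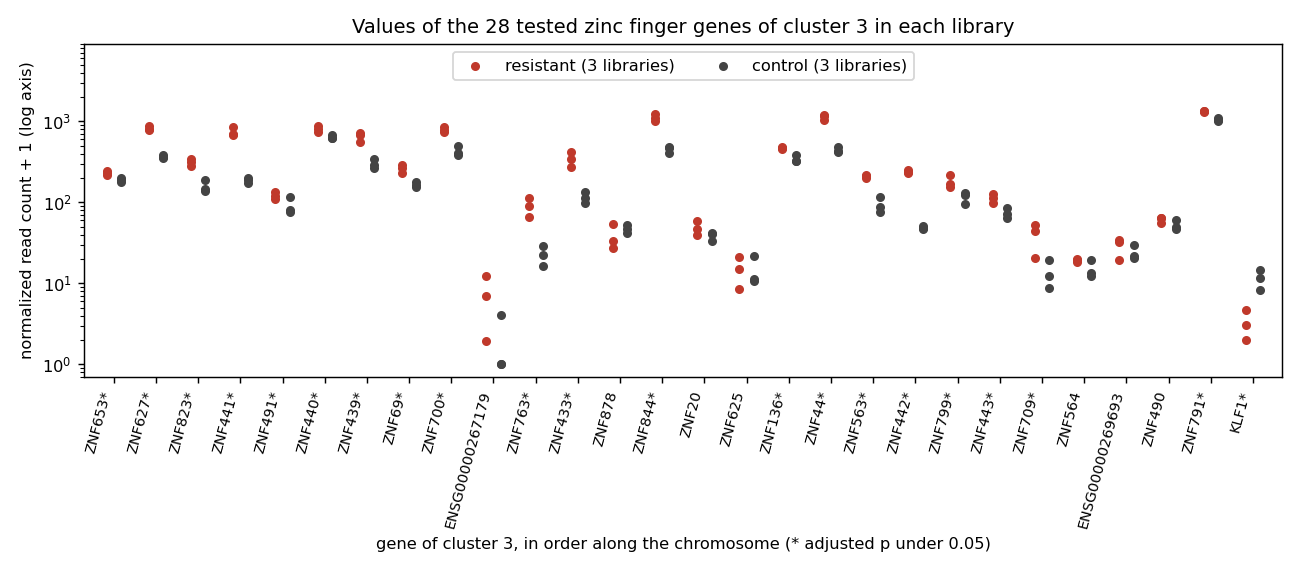
Normalized read count plus 1, on a log axis, of the 28 tested members of cluster 3 in order along the chromosome, with the 3 resistant libraries in red to the left of the 3 controls in grey. An asterisk marks an adjusted p under 0.05; from ZNF627 to ZNF442 most red points lie clear above the grey ones, and KLF1 at the right is the only called gene with the red points below.

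Genes of other kinds inside the cluster 3 span were measured as well. Of 58 tested, 14 rose and 7 fell, with a median of 0.23. Restricted to 26 protein-coding neighbours, 7 rose and 7 fell, with a median of 0.09, and the difference from the zinc finger genes was not tested. Among the members of the cluster, the 14 whose promoter held CCAATCAGG had 10 higher and a median of 0.45, and the 11 matched members without it had 9 higher and a median of 0.88. Outside cluster 3, the 27 members with the word had 13 higher and a median of 0.16, and the 169 without it 57 higher and a median of 0.18.

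Cluster 7, on the long arm at chr19:36111151-37817300 from OVOL3 to ZNF573, had the next highest median among the 10, at 0.38. Of 30 tested members 15 rose and 1 fell, while among 28 other genes in its span 1 rose and 3 fell, with a median of 0.15. Elsewhere the other genes had the higher median in clusters 2 (0.95, members 0.23), 4 (0.27, members 0.22) and 6 (0.23, members -0.24). This also held in clusters 9 (0.25, members 0.16) and 10 (0.13, members 0.04), but not in clusters 1, 5 and 8. Restricted to protein-coding neighbours, the median was 0.45 over 2 tested in cluster 2 and 0.43 for 1 in cluster 4. It was 0.26 over 10 in cluster 9 and -0.02 over 32 in cluster 10, and cluster 6 had 0 such genes. Inside any cluster, 59 of 336 other genes rose and 37 fell, with a median of 0.20. The members outside cluster 3 had a median of 0.18, and these differences were not tested. The cluster 7 member with the smallest p was ZNF875, with 578, 570.4 and 577 in the resistant libraries, against 379.9, 369 and 361 in the controls (log2 fold change 0.64 ± 0.09, adjusted p = 1.44e-06). The KRAB gene ZFP82 had 214, 262 and 302 in the resistant libraries, against 158, 136 and 168 in the controls (log2 fold change 0.74 ± 0.13, adjusted p = 8.34e-05). ZNF382, described as a tumour suppressor in several cancers, averaged 198 ± 9.89 in the resistant and 143 ± 2.0 in the control libraries (log2 fold change 0.47 ± 0.12, adjusted p = 0.00369). ZNF568, whose mouse counterpart silences a placental Igf2 transcript, averaged 199 ± 10.8 in the resistant and 149 ± 6.77 in the control libraries (log2 fold change 0.41 ± 0.12, adjusted p = 0.00901); its call was lost under median scaling, with an adjusted p of 0.0773. ZFP30 averaged 186 ± 28.5 in the resistant and 179 ± 18.4 in the control libraries, with a log2 fold change of 0.05 that did not pass the test. The gene that fell was ZNF850, with 29 fingers, at 123, 132 and 138 in the resistant libraries, against 185, 179.8 and 206 in the controls (log2 fold change -0.53 ± 0.13, adjusted p = 0.00174). Leaving out control replicate 1 lowered the count of risers to 9, the fit without a trend to 7 and median scaling to 9, with a median of 0.25.

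Clusters 4 and 5 lie on the short arm near the centromere, in a region known for KRAB genes that arose in primates. In cluster 4, from ZNF101 to ZNF676, 10 of 22 tested members rose and 1 fell, with a median of 0.22 that was 0.09 under median scaling. ZNF682 had 549.7, 494 and 554 in the resistant libraries, against 253, 229 and 294 in the controls, the smallest p there (log2 fold change 1.05 ± 0.10, adjusted p = 1.31e-08). ZNF93, which silences L1 elements in human stem cells, averaged 514 ± 28.8 in the resistant and 462 ± 40.9 in the control libraries, and its log2 fold change of 0.16 did not pass the test. In cluster 5, from ZNF730 to ZNF254, 4 of 7 rose and 1 fell, with a median of 0.26; under median scaling 3 fell and the median was 0.12. ZNF91, which has 31 fingers and silences SVA elements, had 1269, 1136 and 1256 in the resistant libraries, against 769, 803 and 891 in the controls. Its groups did not overlap (log2 fold change 0.57 ± 0.08, adjusted p = 1.53e-06). The difference between ZNF91 and ZNF93 was not tested.

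Clusters 1 and 2 lie nearer the end of the short arm. Cluster 1, from ZNF554 to ZNF77, had 2 of 5 members higher and a median of 0.16. No member of cluster 1 had a negative fold change, and limma, edgeR and DESeq2 each called 0 lower, also at an unadjusted p under 0.05. Its median was 0.33 without control replicate 3, 0.37 without resistant replicate 1, 0.25 without resistant replicate 2 and 0.03 under median scaling. Its smallest p was that of ZNF555, with 144, 179 and 200.3 in the resistant libraries, against 105, 117 and 139 in the controls (log2 fold change 0.53 ± 0.15, adjusted p = 0.00648). That call was lost without resistant replicate 3, at an adjusted p of 0.0518, and the cluster's count of risers ranged from 0 to 3 over the libraries left out and was 0 in the fit without a trend. In cluster 2, from ZNF558 to ZNF846, 8 of 13 tested members rose and 1, ZNF562, fell, with a median of 0.23. Its count of risers was 4 without control replicate 1, 5 without control replicate 2 and 5 without resistant replicate 3, and 4 in the fit without a trend. Its median was 0.36 without control replicate 2, 0.40 without resistant replicate 1 and 0.10 under median scaling.

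ZNF266 in cluster 2 had the smallest p of its cluster. It had 3495, 3246 and 3457 in the resistant libraries, against 1901, 1912 and 2211 in the controls (log2 fold change 0.76 ± 0.07, adjusted p = 3.09e-09), and every resistant library was above every control. Its neighbour ZNF121 was as abundant, with 2876, 2912 and 3093 in the resistant libraries, against 2927, 2946 and 3538 in the controls, and overlapped between the groups, with a log2 fold change of -0.08. Per kilobase of gene length over all libraries, the highest members were ZNF841 at 596, ZNF266 at 500.3, ZNF358 at 448 and ZNF121 at 420.4 normalized reads per kb. ZNF358, outside the clusters, had 1198, 986 and 1062 in the resistant libraries, against 811, 822 and 682 in the controls (log2 fold change 0.49 ± 0.09, adjusted p = 6.00e-05). ZNF841 in cluster 9 had 3589.8, 2451 and 2529 in the resistant libraries, against 2268, 2150.0 and 2344 in the controls, so resistant replicate 1 was far above the other libraries. Its log2 fold change of 0.32 did not pass the test (adjusted p = 0.100), and without that library it was 0.14 with an adjusted p of 0.0367.

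The other long-arm clusters differed in their medians. Cluster 6, from ZNF302 to ZNF792, had 5 tested members and the lowest median of the 10, at -0.24, with ZNF599 as its 1 riser, at 136, 133 and 128 in the resistant libraries, against 83.2, 92.5 and 81.0 in the controls (log2 fold change 0.62 ± 0.15, adjusted p = 0.00147). Cluster 8, from ZNF575 to ZNF180, had 8 of 21 higher and 0 lower, with a median of 0.27. At an unadjusted p under 0.05, limma had 2 of its members lower and edgeR 1, and DESeq2 had 0 at either threshold; median scaling called 2 lower. Its smallest p was that of ZNF404, with 138, 169 and 124 in the resistant libraries, against 58.5, 61.3 and 73.2 in the controls (log2 fold change 1.14 ± 0.17, adjusted p = 5.35e-06). The count of risers in cluster 8 was 5 without control replicate 1 and 4 without control replicate 2, and in the fit without a trend it was 3. In cluster 9, from ZNF175 to ZNF331, 11 of 37 rose and 4 fell, with a median of 0.16; 7 rose without control replicate 2, and 2 fell without control replicate 3 or resistant replicate 2. The fit without a trend called 6 higher and 2 lower. The median was 0.11 without control replicate 1 and 0.03 under median scaling, on which 6 rose and 9 fell. ZNF160 there had 1806, 1589 and 1712 in the resistant libraries, against 966, 957 and 1172 in the controls (log2 fold change 0.73 ± 0.08, adjusted p = 7.50e-08).

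**Figure D4:**
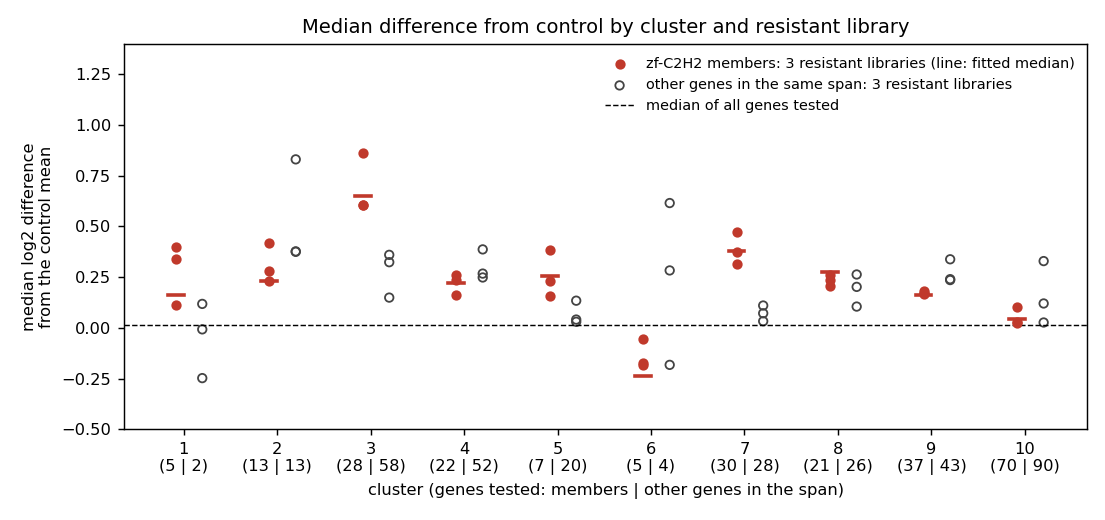
Median log2 difference from the control mean in each of the 3 resistant libraries, for the members of each cluster (red points, with a red line at the fitted median) and for the other genes in the same span (open circles), with the numbers tested under the axis. Cluster 3 members lie at 0.60, 0.61 and 0.86, above the other clusters; cluster 6 lies below 0 and cluster 10 near the dashed median of all genes.

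Cluster 10, at the end of the long arm from ZNF628 to MZF1, is the largest, with 70 tested members, and was close to balanced. There 15 members rose and 11 fell, with a median of 0.04. The median was 0.07 without control replicate 3, 0.06 without resistant replicate 2, 0.01 without resistant replicate 3 and -0.09 under median scaling, on which 20 fell. Its clearest riser was ZSCAN18, a SCAN-domain gene, with 1784, 1479.5 and 1476 in the resistant libraries, against 912, 917 and 965 in the controls (log2 fold change 0.76 ± 0.08, adjusted p = 2.28e-08). Of the family's 21 falls, 11 came from this cluster. The fit without a trend called 8 higher and 5 lower.

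Most of the large falls in cluster 10 were side by side. From ZNF551 to ZNF587B, at chr19:57681969-57846238, 7 adjacent members all had negative fold changes, 5 of them passed the test, and the median was -0.54. The run was singled out after the values were seen. ZNF587B, the largest fall with a mean of at least 50 in either group, had 243, 294 and 245 in the resistant libraries, against 452, 448 and 482 in the controls (log2 fold change -0.82 ± 0.10, adjusted p = 4.25e-07). ZNF552 had 81.6, 62.8 and 79.9 in the resistant libraries, against 106, 122 and 114 in the controls (log2 fold change -0.61 ± 0.17, adjusted p = 0.00464) and ZNF551 had 267, 261 and 270.3 in the resistant libraries, against 422, 351 and 448 in the controls (log2 fold change -0.60 ± 0.11, adjusted p = 4.82e-05). All 3 genes had every resistant value below every control, which the rule that named them required.

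The remaining members of the run were less certain. ZNF154, a gene often methylated in tumours, had 44.9, 61.8 and 57.2 in the resistant libraries, against 76.0, 66.5 and 98.3 in the controls (log2 fold change -0.54 ± 0.20, adjusted p = 0.0335), and its call was lost without control replicate 1, control replicate 3 or resistant replicate 1, at adjusted p of 0.0645, 0.192 and 0.104. ZNF586 averaged 222 ± 27.7 in the resistant and 283 ± 24.4 in the control libraries (log2 fold change -0.35 ± 0.12, adjusted p = 0.0184), and its call was lost without control replicate 1 or 3 or resistant replicate 2 or 3. ZNF671 and ZNF776 had log2 fold changes of -0.21 and -0.08 that did not pass the test. ZNF551 and ZNF154 overlap on opposite strands, as do ZNF552 and ZNF586, and ZNF587B overlaps ZNF586 and shares 24.1% of its 50-base words with other transcripts. Strand handling was not given in the sources used here, so reads of these partners cannot be told apart.

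Cluster 10 also holds the imprinted genes PEG3 and ZIM2. PEG3, a paternally expressed gene, had 47.9, 61.8 and 63.1 in the resistant libraries, against 99.6, 92.5 and 94.4 in the controls, with all resistant values lower (log2 fold change -0.73 ± 0.18, adjusted p = 0.00189). ZIM2, which shares exons with PEG3, was at or below 7.38 in every library and did not pass the test. ZNF578 in cluster 9 had 69.3, 87.7 and 64.1 in the resistant libraries, against 127, 110.2 and 128 in the controls (log2 fold change -0.73 ± 0.17, adjusted p = 0.00101). The other members that fell, in smaller steps, were ZNF562, ZNF257, ZNF681, ZNF649, ZNF880, ZNF701, ZNF628, FIZ1, ZNF784, ZNF787 and ZNF544. The calls of ZNF562, ZNF784 and ZNF880 held in each of the 15 settings run, those of ZNF787 and ZNF544 in each except the fit without a trend, and the remaining 6 were lost when at least 1 library was left out.

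The 3 Krüppel-like factors of the chromosome, which have 3 fingers each and no KRAB domain, did not move together. KLF16 had 635, 636 and 518 in the resistant libraries, against 907, 898 and 827 in the controls, all lower than the controls (log2 fold change -0.56 ± 0.09, adjusted p = 1.07e-05). KLF2, a factor of quiescent lymphocytes and endothelium, had 565, 649.8 and 655 in the resistant libraries, against 486, 472 and 428 in the controls and rose (log2 fold change 0.43 ± 0.09, adjusted p = 0.000342). Outside the clusters the largest rise was that of ZNF114, a KRAB gene with 3 fingers, with 1321, 946 and 1127 in the resistant libraries, against 421, 403 and 480.0 in the controls (log2 fold change 1.37 ± 0.10, adjusted p = 1.24e-09). ZNF541, a germ cell gene in mouse, was named after its values were seen and averaged 111 ± 15.6 in the resistant and 48.5 ± 6.07 in the control libraries (log2 fold change 1.17 ± 0.18, adjusted p = 1.23e-05).

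Several members with known partners or targets did not pass the test. ZNF274, which binds the 3′ ends of other zinc finger genes and recruits SETDB1 there, had 1347, 1379 and 1381 in the resistant libraries, against 1208, 1220.0 and 1290.5 in the controls. Its resistant values were all above its controls but the difference was small (log2 fold change 0.14, adjusted p = 0.0935), and it passed without resistant replicate 1, at 0.16. ZNF350, a BRCA1 partner, averaged 734 ± 117 in the resistant and 771 ± 46.4 in the control libraries, and without resistant replicate 1 it was lower, at -0.21 (adjusted p = 0.0240). ZNF473, a histone mRNA processing factor, averaged 301 ± 34.8 in the resistant and 275 ± 15.7 in the control libraries. ZNF808, which silences MER11 elements in the human pancreas, averaged 281 ± 16.2 in the resistant and 252 ± 32.2 in the control libraries. ZNF331, ZNF175, ZNF296 and MZF1 had log2 fold changes of -0.06, 0.25, -0.27 and 0.12. The 3 members ZNF812P, ENSG00000196826 and OVOL3 were too low to test.

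Members with a KRAB match had a higher median than those without. The match was to a short sequence pattern, so a gene without a match may still carry the domain. Of 203 tested with a KRAB match, 86 rose (42.4%) and 14 fell (6.90%), with a median of 0.25, and of 49 without, 12 rose (24.5%) and 7 fell (14.3%), with a median of 0.05. The same order held outside cluster 3, with medians of 0.22 over 182 and 0.02 over 43. The match is partly tied to the cluster, since 23 members without it were in cluster 10, and clusters 1, 5, 6 and 9 had none. In cluster 10 the medians were 0.07 with a match and -0.0038 without, in cluster 2 0.23 and 0.18, and in cluster 7 0.41 and 0.36. The gap was wider in clusters 3 (0.88 and 0.41), 4 (0.29 and 0.06) and 8 (0.36 and -0.35). On other chromosomes the medians were 0.20 over 104 with and 0.11 over 215 without, and these differences were not tested. Members with 13 or more fingers had 51 of 115 higher and a median of 0.29, those with 6 to 12 fingers 41 of 117 and 0.12, and those with up to 5 fingers 6 of 20 and 0.11. Across 252 members the Spearman correlation of finger number with the log2 fold change was 0.15, and with gene length it was -0.0047 over 254; members of a cluster share ancestry and neighbourhood, so they are not independent.

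Duplicated genes can share reads, so the change was set beside the sequence each member shares. The 24 tested members with 20% or more of their 50-base words in other transcripts had 6 higher and 1 lower and a median of 0.28, and the 230 below that had 92 higher and 20 lower and a median of 0.21. The Spearman correlation of the shared percentage with the log2 fold change was 0.02, and that of the mean log2 level was -0.04. Of the 257 members, 169 overlap another listed gene, so antisense or readthrough reads may be included in their values.

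Genes that KRAB proteins work through were measured alongside, with other chromatin genes. The list held 31 genes, all tested, of the TRIM28, SETDB1, HP1, NuRD, HUSH and DNA methylation machinery and of chromatin more widely. The wider genes included EHMT1, EHMT2, ATRX, DAXX, ADNP and SMARCAD1. Of the 31, 5 rose (16.1%), ATRX among them, and 12 fell (38.7%), with a median of -0.08. The share called, 54.8%, was near that of all protein-coding genes, 54.9%, of which 25.7% were higher and 29.1% lower, and the list was not tested against them. TRIM28, the scaffold itself and also a gene of chromosome 19, had 6268, 7064 and 6748 in the resistant libraries, against 10192, 10404 and 9329 in the controls (log2 fold change -0.58 ± 0.06, adjusted p = 8.25e-08). No resistant library reached the lowest control. SETDB1, the histone H3 lysine 9 methyltransferase, had 719, 715 and 736 in the resistant libraries, against 697, 695 and 675 in the controls, and its log2 fold change of 0.07 did not pass the test (adjusted p = 0.498).

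The lowest p among the falls belonged to RESF1, UHRF1 and CBX3. RESF1, a SETDB1 partner, had 704, 878 and 927 in the resistant libraries, against 3258, 3071 and 3189 in the controls (log2 fold change -1.93 ± 0.08, adjusted p = 3.30e-14). UHRF1, which brings the maintenance DNA methyltransferase DNMT1 to replicated DNA, had 919, 1109 and 1102 in the resistant libraries, against 2841, 2798 and 2539.5 in the controls (log2 fold change -1.39 ± 0.08, adjusted p = 5.75e-13). CBX3, which encodes HP1 gamma, had 3496, 3095 and 3132 in the resistant libraries, against 4875, 5037 and 5419 in the controls (log2 fold change -0.66 ± 0.07, adjusted p = 1.71e-08). Each of these was lower in all 3 resistant libraries. The DNA methyltransferase genes of the list were named after their values were seen. DNMT1 averaged 4442 ± 469 in the resistant and 6538 ± 504 in the control libraries (log2 fold change -0.56 ± 0.08, adjusted p = 2.28e-06) and DNMT3B 245 ± 19 in the resistant and 343 ± 14.4 in the control libraries (log2 fold change -0.48 ± 0.10, adjusted p = 0.000529). DNMT3A averaged 348 ± 16.8 in the resistant and 369 ± 27.4 in the control libraries. Its log2 fold change of -0.08 did not pass the test (adjusted p = 0.532). The other genes of the list that fell were CHD3, PPHLN1, RBBP4, MTA2, RBBP7 and MPHOSPH8. Another HP1 gene, CBX5, which encodes HP1 alpha, rose, with 2838, 2803 and 2888 in the resistant libraries, against 1904, 1849.7 and 1971 in the controls (log2 fold change 0.58 ± 0.06, adjusted p = 6.14e-08). MTA1, a NuRD subunit, averaged 1309 ± 107 in the resistant and 957 ± 67.0 in the control libraries (log2 fold change 0.45 ± 0.08, adjusted p = 3.94e-05), and the other risers were ATF7IP, ATRX and TASOR. ATF7IP, the SETDB1 cofactor, had a log2 fold change of 0.24, and its call was lost without control replicate 2, which left 3 risers on the list. Under median scaling, and in the fit without a trend, 2 rose.

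**Figure D5:**
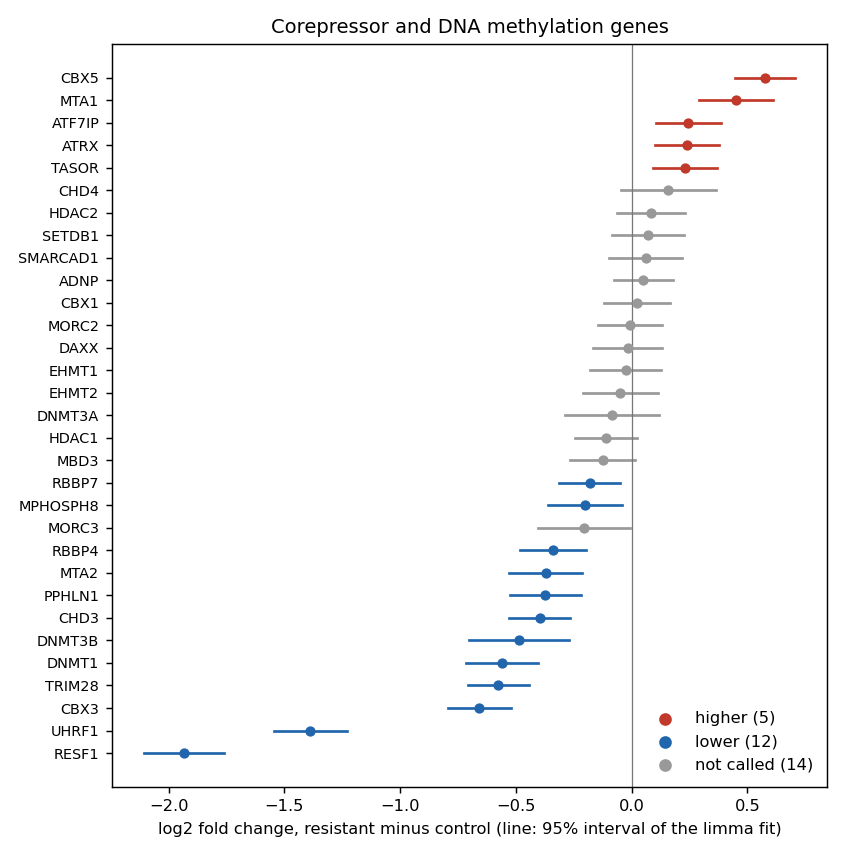
Log2 fold change, resistant minus control, of the 31 corepressor and DNA methylation genes, with a line for the 95% interval of the limma fit. Red genes rose (5), blue genes fell (12) and grey genes did not pass the test (14); RESF1 and UHRF1 lie farthest to the left and CBX5 farthest to the right.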

How the data were processed

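RNA-seq was deposited for 3 libraries of H1975/OSI and 3 of NCI-H1975, prepared with NEBNext Ultra and SMARTer kits per the labels' protocols. Per the submitters' processing notes reads were placed on GRCh38. How they were aligned and counted, and whether by strand, is not given in the sources used here. A deposited signal value is a gene's read count divided by 1 size factor per library, as read from the values: 100% came out as whole reads within 0.001 reads. The length, position and transcription factor family of each gene are also as deposited by the authors.

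Fold changes were computed with limma (3.58.1, R 4.3.3) with a mean-variance trend and robust moderation on log2(value + 1), which understates the change of low genes. Tested genes reached a value of 1 in 3 or more libraries, all 6 libraries entered 1 two-sided fit, and p-values were adjusted by Benjamini-Hochberg over the 24560 genes with a threshold of 0.05. Because the values are normalized, the count tests were run as alternatives on the recovered reads: edgeR (4.0.16) called 5002 genes higher and 5158 lower, and DESeq2 (1.42.0) 4239 and 4587. Other alternatives changed the scaling, filter, pseudocount, variance model, libraries and the gap that splits clusters.

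Named members were the 8 largest rises and 8 largest falls past the threshold with separate groups and a mean of at least 50 in the higher group, the 4 highest per kb, the smallest p of each cluster and a set of members with known roles. The 3 corepressor genes with the lowest p in each direction were added, with TRIM28 and SETDB1. Other members and corepressor genes were named after their values were seen, also where their sentence does not say so. The members and lists were chosen with earlier results of these data known. Domains, fingers and shared 50-base words came from the coding and transcript sequences of GENCODE and promoters from RefSeq. On simulated data of 25129 genes, the fit called 96 of 100 genes changed 2-fold, 71 of 100 changed 1.5-fold and 7 of 24929 unchanged. The changed genes were drawn from those above a minimum control level, and far fewer were changed than were called in the data. No simulated library was made to stand apart, so the rates in the data may differ.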

Additional observations from a re-analysis of the deposited data

How the results depend on the processing

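Of the 98 members called higher and 21 called lower, 56 and 11 kept their call in each of the 15 settings run, 15 of the 56 in cluster 3. Without 1 library, 75 to 103 were higher and 16 to 21 lower. Without a variance trend 61 were higher and 11 lower, and 2 corepressor genes were higher. Median centring gave 43 lower members and 2 higher corepressor genes, and moved the medians to 0.097 for the members, 0.00082 for zf-C2H2 genes elsewhere, and 0.098, 0.087, -0.37, 0.25, 0.14, 0.029 and -0.093 for clusters 2, 4, 6, 7, 8, 9 and 10. It turned ZFP30 to -0.082, ZNF473 to -0.0059, MZF1 to -0.012 and SETDB1 to -0.064. The limma fit on median-centred values called ZNF121 lower, at -0.21 (adjusted p = 0.0215), and ZNF331 lower, at -0.19 (adjusted p = 0.0403). Quantile normalization turned ZNF121 to 0.015 and ZNF331 to 0.011. With it the limma fit called ZNF274, MZF1 and ZNF841 higher, at adjusted p of 0.0133, 0.0364 and 0.0240. With 1 library left out, 3 to 5 corepressor genes were higher, the cluster 2 median was 0.21 to 0.40, ZNF121 lay between -0.13 and 0.011 and ZFP30 between -0.067 and 0.14. The cause of these shifts was not tested. Splitting at 250 kb gave 13 clusters, with a median of 0.66 from ZNF653 to ZNF791, and splitting at 1 Mb (1000 kb) gave 9 and left cluster 3 as it was.

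Libraries of the same replicate number did not deviate together over the genes tested, with correlations of -0.0015, 0.0001 and 0.0067. The main fit did not pair them, and these correlations cannot show whether libraries of the same number were handled together. With the replicate block 98 members were higher and 21 lower, of which 96 and 21 were among the calls without it; ZNF841 passed with it, at an adjusted p of 0.0055. At this depth, members with few reads, such as KLF1, are measured least precisely.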

Other observations

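Other short promoter words differed between the clusters, in the same windows from 250 bases before to 50 after the start and on both strands. The ETS word CCGGAAG was found in 7 of 7 cluster 5 promoters, 20 of 31 in cluster 9 and 35 of 61 in cluster 10, against 10.7% of all promoters. TGACGTCA, the word read by CREB and ATF factors, was found in 5 of 11 cluster 2 promoters and in 7 of the 222 matched members, against 1.98% of all promoters. The plain CCAAT box was in 23 of 25 cluster 3 promoters and 6 of 28 in cluster 7, against 35.7% of all promoters. AAGATGGC, GCGCATGC and ACTACAA, words read by YY1, NRF1 and ZNF143, were in 6.76%, 4.05% and 4.50% of the members, against 3.03%, 3.27% and 2.95% of all promoters. These shares are descriptions, and no relation between them and the change of the clusters was tested.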
